A study of Mus musculus with 6 samples.

Results

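The 7 genes described here are Dnase2b, Birc7, Lctl, Grifin, Hopx, Drd4 and the long noncoding RNA gene Gm20757, which were picked by name because their transcripts were far lower in lenses without Prox1 than in wild type lenses. They are 7 of the 41128 features listed and 7 of the 14271 features with enough counts to be tested. The choice rests on the same knockout and wild type libraries, so their decrease is given below as a description, with no test. RNA sequencing was done on mouse lens at embryonic stage E13.5, with 3 libraries per group and 30 lenses pooled in each library, and the labels give strain C57Bl/6 for both groups. The knockout was Prox1 f/f MLR10Cre+, that is, floxed Prox1 alleles with a Cre transgene, and the other group was wild type. MLR10-Cre is driven by a modified promoter of the αA-crystallin gene and is active in lens epithelium and fibre cells. No library with the floxed alleles alone or the Cre transgene alone was analysed here. The pools are biological replicates per the labels, which are silent on whether litters were shared between them. The p-values therefore cover only the pool-to-pool spread.

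Lens fibre cells form when cells at the back of the lens vesicle, and later cells at the lens equator, leave the cell cycle, elongate and fill with crystallins. In a later step of the same programme they degrade their nuclei and other organelles, which leaves the lens core clear. Prox1 is a homeodomain transcription factor that is known to be needed for fibre cell elongation and for expression of γ-crystallins. Several of the genes below are known from later fibre cells. Dnase2b encodes the acid nuclease that degrades fibre cell DNA, and Grifin encodes a galectin-related protein found mainly in lens. The other members have best-known roles elsewhere, such as Drd4, a dopamine receptor, and Hopx, a small homeodomain protein that does not bind DNA.

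Library totals were between 9082219 and 28391662 counts in the knockout and between 20731491 and 21061582 in the wild type. For a gene with no count a level of 3 counts was taken as its upper limit, a one-sided limit that covers counting error only. It is between 0.106 and 0.33 CPM, the count scaled to the library's total, in these libraries. The plotted intervals are two-sided and so reach higher, to 0.130 CPM for 0 counts in knockout library 1. The 16 crystallin genes, which define the tissue, accounted for between 2.83 and 3.14% of each knockout library and for 13.2, 21.5 and 22.7% of wild type libraries 1, 2 and 3. Prox1 itself was at 990 ± 72.6 CPM in the wild type and 784 ± 13.9 CPM in the knockout (SD, n = 3 each). Its log2 change was −0.70 (edgeR adjusted p = 0.0074), and scaling by library totals alone ended that call (edgeR adjusted p = 0.0532). No source used here gives the floxed part of Prox1, so the count over the whole gene does not check the deletion. In pooled tissue, fewer fibre cells and less RNA per fibre cell cannot be told apart.

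Across all features tested, 4659 (32.6%) passed the edgeR threshold, an adjusted p under 0.05, with 2396 (16.8%) lower and 2263 (15.9%) higher in the knockout. In 7 of the 7 genes every knockout library was below every wild type library, as it was in 3671 (25.7%) of all features tested. The median log2 change, knockout minus wild type, was −4.85 over the 7 genes and 0.04 over all features tested. Lctl ranked 2, Dnase2b 5, Birc7 7, Drd4 14, Hopx 15, Gm20757 16 and Grifin 107 among all tested features ordered by size of decrease. These ranks follow from how the genes were picked.

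**Figure D1:**
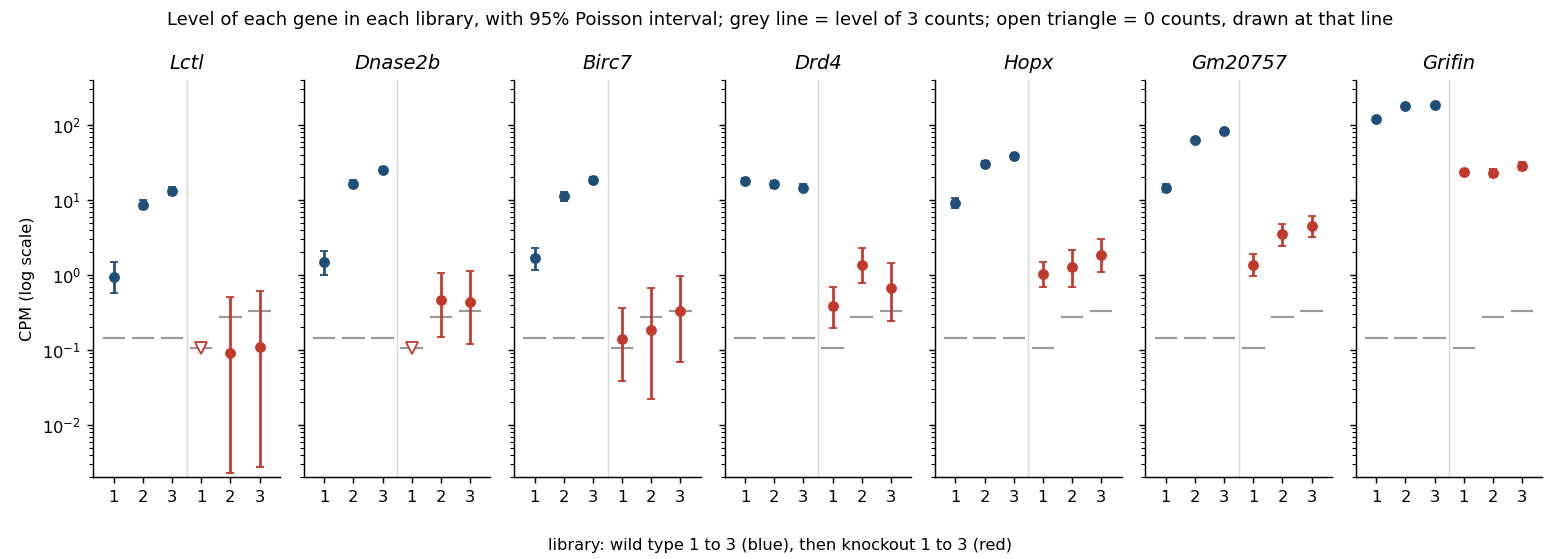
CPM of each of the 7 genes (log scale) in wild type libraries 1 to 3 (blue) and knockout libraries 1 to 3 (red), with 95% Poisson intervals and the level of 3 counts as a grey line. Lctl, Dnase2b and Birc7 sit at or near the grey line in the knockout, while Grifin stays between 22.9 and 28.1 CPM there.

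Dnase2b (ENSMUSG00000028185) lies on the minus strand of chromosome 3, at 146580985 to 146615596 in GRCm38. The RefSeq table of GRCm38.p6 promoters gives 300 bases for each gene, 250 before to 50 after the start of transcription, and held all 7 genes. The 250 bases before the start are printed for 4 genes, with motifs of lens regulators marked as a description. Whether a motif goes with the level of its regulator was not tested. Capitals mark matches, on either strand, to GAANNTTC or TTCNNGAA (forms of the heat shock element, which Hsf4 binds), TGCTGA (bound by Maf factors), AACAAT (bound by SOX factors) or AGATAA (bound by GATA factors), and no printed matches overlap. For Dnase2b the window is chr3:146615599-146615848, minus strand, printed 5′ to 3′.
Dnase2b: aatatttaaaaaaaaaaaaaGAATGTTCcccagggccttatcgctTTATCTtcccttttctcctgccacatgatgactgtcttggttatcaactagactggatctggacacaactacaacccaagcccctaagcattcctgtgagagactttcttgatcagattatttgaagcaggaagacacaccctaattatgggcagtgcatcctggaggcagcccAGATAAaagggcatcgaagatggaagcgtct
The Dnase2b window held 1 match to GAANNTTC, at −230 counted from the start, and 2 matches to AGATAA. GAANNTTC was found in 7.86% and AGATAA in 11.2% of all 32851 windows of 300 bases. A match is a description of letters, not of a bound site.

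Dnase2b was at 1.47, 16.4 and 24.8 CPM in wild type libraries 1, 2 and 3, from 31, 341 and 517 counts. In knockout libraries 1, 2 and 3 it was at 0, 0.458 and 0.440 CPM, from 0, 5 and 4 counts. The knockout levels were near or below that of 3 counts, and wild type library 1 was far below the other wild type libraries yet 3.21 times the highest knockout library. The fitted log2 change was −6.53 (SE 1.32), and the ratio of pooled CPM was 76.3 with a counting interval of 40.0 to 167. Here and below, the pooled ratio is wild type over knockout, from summed counts over summed library totals, so deeper libraries weigh more. It is not scaled for library composition (TMM), while the fit is.

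Lctl (ENSMUSG00000032401) encodes lactase-like, also called klotho gamma, a member of the glycosidase-related klotho family. It lies on the plus strand of chromosome 9, at 64117147 to 64138118. The window shown is chr9:64116897-64117146, plus strand.
Lctl: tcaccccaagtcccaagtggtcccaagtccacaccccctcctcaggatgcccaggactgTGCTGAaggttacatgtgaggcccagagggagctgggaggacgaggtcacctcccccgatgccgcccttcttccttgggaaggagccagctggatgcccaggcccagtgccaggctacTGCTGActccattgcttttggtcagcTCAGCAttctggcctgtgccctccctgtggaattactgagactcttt
This window held 3 matches to TGCTGA, a motif found in 19.5% of all windows.

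In the wild type libraries Lctl was at 0.95, 8.68 and 13.1 CPM, from 20, 180 and 272 counts. The knockout libraries held 0, 1 and 1 counts, that is 0, 0.0917 and 0.110 CPM. All knockout libraries were thus below the level of 3 counts, and wild type library 1 was again the lowest of its group. With 2 knockout counts in all, the pooled ratio was 182 with a counting interval of 50.2 to 1510. The fitted log2 change of −7.68 (SE 1.38) depends on the prior count, and a prior count of 2 gave −5.94. Of the exon bases of Lctl, 9.75% are shared with Zwilch on the opposite strand, and the TruSeq kit used keeps no strand, so reads from that stretch cannot be told apart.

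Birc7 (ENSMUSG00000038840) encodes livin, an inhibitor of apoptosis protein (IAP) that binds caspases. It lies on the plus strand of chromosome 2, at 180929023 to 180934010. Its window is shown because it held none of the motifs although the gene's levels ran closest to those of Lctl, and it is chr2:180928773-180929022, plus strand.
Birc7: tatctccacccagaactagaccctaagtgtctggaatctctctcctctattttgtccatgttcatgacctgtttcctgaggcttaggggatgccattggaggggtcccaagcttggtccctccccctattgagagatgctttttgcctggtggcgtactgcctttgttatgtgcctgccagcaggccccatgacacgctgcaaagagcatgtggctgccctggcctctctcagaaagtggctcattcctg
No match says only that these letters are not in this window.

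Wild type levels of Birc7 were 1.66, 11.1 and 18.4 CPM in libraries 1, 2 and 3, from 35, 231 and 382 counts. Knockout levels were 0.141, 0.183 and 0.330 CPM, from 4, 2 and 3 counts. The order of the wild type libraries was that of Dnase2b and Lctl, with library 1 lowest and library 3 highest. The fitted log2 change was −6.15 (SE 1.06), and the pooled ratio was 55.6 with a counting interval of 29.1 to 122.

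Drd4 (ENSMUSG00000025496) encodes the D4 dopamine receptor, which couples to inhibitory G proteins. It lies on the plus strand of chromosome 7, at 141292006 to 141296464. The window is chr7:141291768-141292017, plus strand.
Drd4: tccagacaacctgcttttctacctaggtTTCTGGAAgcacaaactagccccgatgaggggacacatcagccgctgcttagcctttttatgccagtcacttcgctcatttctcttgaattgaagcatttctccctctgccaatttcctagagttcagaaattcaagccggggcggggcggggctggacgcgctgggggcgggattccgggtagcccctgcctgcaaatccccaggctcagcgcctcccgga
The window held 1 match to TTCNNGAA, at −222 counted from the start, a motif found in 8.52% of all windows. A match to TGCTGA lay 6 bases after the start, outside the stretch printed.

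Drd4 was at 17.9, 16.3 and 14.6 CPM in wild type libraries 1, 2 and 3, from 378, 337 and 303 counts. In the knockout libraries it was at 0.387, 1.38 and 0.661 CPM, from 11, 15 and 6 counts. Here wild type library 1 was not low, and the lowest wild type library was 10.6 times the highest knockout library. Drd4 changed by −4.85 (SE 0.37) on the log2 scale of the fit, and leaving out 1 library at a time gave values from −5.49 to −4.26. The pooled ratio was 24.6 with a counting interval of 17.3 to 36.1.

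Hopx (ENSMUSG00000059325) lies on the minus strand of chromosome 5, at 77086988 to 77115121. Its wild type levels were 9.12, 30.4 and 38.2 CPM, from 192, 631 and 796 counts. Its knockout levels were 1.02, 1.28 and 1.87 CPM, from 29, 14 and 17 counts. All of these knockout levels lay above that of 3 counts, so a remainder of Hopx transcript was measured in each knockout library. By the fit Hopx changed by −4.73 (SE 0.63) on the log2 scale, and the pooled ratio was 20.9 with a counting interval of 16.1 to 27.5. Of its exon bases 27.2% are shared with the antisense gene Hopxos, which is listed at 0 counts in all 6 libraries. Hopx has 2 RefSeq windows, of which 1 held AACAAT and 1 held TGCTGA, each with 1 match.

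Gm20757 (ENSMUSG00000098040) is annotated as a long intergenic noncoding RNA on the minus strand of chromosome 10, at 92171301 to 92375373. It was at 14.5, 63.9 and 83.0 CPM in the wild type, from 305, 1324 and 1728 counts. In the knockout it was at 1.37, 3.48 and 4.51 CPM, from 39, 38 and 41 counts. Wild type library 1 was lowest and knockout library 1 was lowest in its group too. In the fit its log2 change was −4.69 (SE 0.76), and the pooled ratio was 22.0 with a counting interval of 18.3 to 26.6. Its promoter window held 1 match to AACAAT, found in 10.7% of all windows, and 7.86% of its exon bases are shared with Gm47124 on the opposite strand.

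Grifin (ENSMUSG00000036586) lies on the minus strand of chromosome 5, at 140563119 to 140565071. Wild type levels were 121, 180 and 183 CPM, from 2557, 3734 and 3799 counts. Knockout levels were 23.4, 22.9 and 28.1 CPM, from 665, 250 and 255 counts. "Nearly lost" does not describe Grifin, which kept 11.8% of its wild type level by the fit, while the other members kept between 0.489% and 3.88%. The fitted log2 change was −3.08 (SE 0.23), an 8.46-fold decrease, and the pooled ratio was 6.66 with a counting interval of 6.27 to 7.09. The fitted value lies outside that interval, which belongs to the ratio without TMM. Its promoter window held none of the motifs.

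The deposited RPKM, which divides by gene length, allows levels to be compared between genes. In the wild type the order by mean RPKM was Grifin at 263 ± 56.5, Gm20757 at 33.5 ± 22.0, Hopx at 17.1 ± 9.95, Drd4 at 12.2 ± 1.27, Birc7 at 6.78 ± 5.46, Dnase2b at 5.55 ± 4.61 and Lctl at 2.91 ± 2.36 (SD, n = 3). Grifin stood above all others in every wild type library, with a range of 198 to 298 RPKM. The neighbours in this order below Grifin had overlapping ranges, for example 1.08 to 11.98 RPKM for Birc7 and 0.574 to 9.68 RPKM for Dnase2b. In the knockout Grifin was at 40.5 ± 4.64 RPKM, above the wild type mean of each other member, and the rest were at 1.95 ± 0.998 RPKM (Gm20757) or below. The length implied by the deposited RPKM of Drd4 was 1334 bases, against 3381 exon bases in the GENCODE M21 annotation, so its RPKM rests on a shorter gene model.

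The wild type libraries differed from each other in these genes far more than in most. On the scale of CPM after TMM scaling, which adjusts for composition, the highest wild type library was 19.9 times the lowest for Dnase2b, 16.2 times for Lctl, 13.0 times for Birc7, 6.75 times for Gm20757 and 4.94 times for Hopx. The ratio was 1.77 for Grifin and 1.11 for Drd4. The median was 6.75 over the 7 genes, 2.18 over the crystallins, 1.69 over the other fibre genes and 1.22 over all features tested. Wild type library 1 was the lowest in 6 of the 7 genes, the exception being Drd4, in 16 of 16 crystallins, in 12 of 13 other fibre genes and in 38.1% of all features tested.

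**Figure D2:**
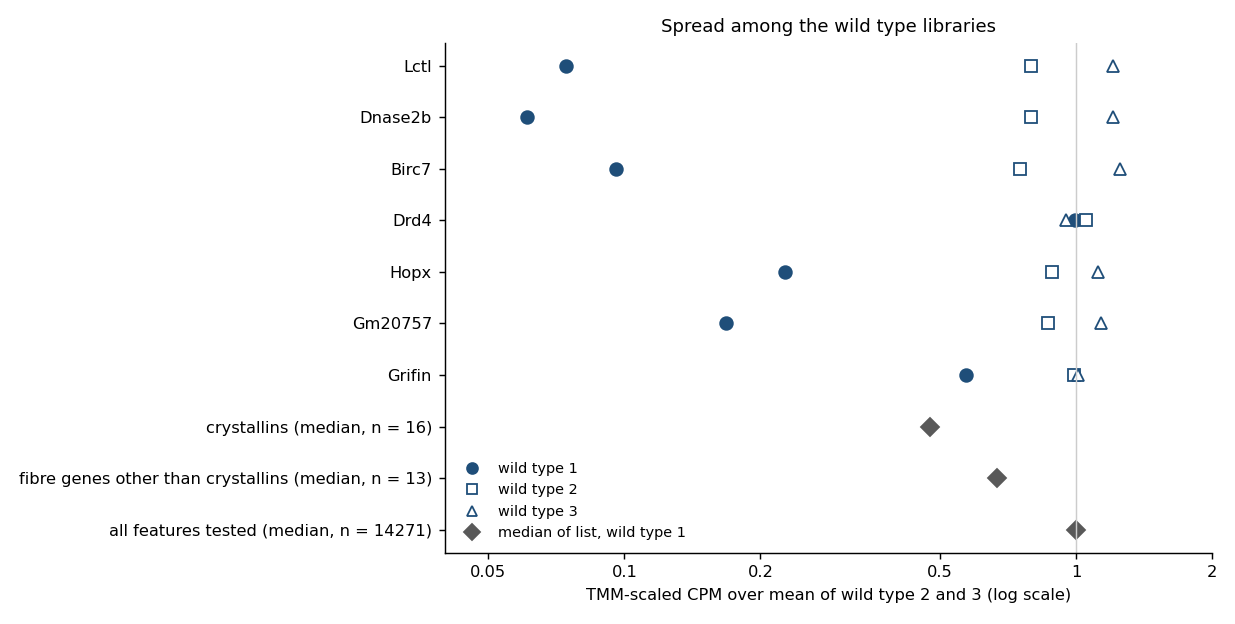
TMM-scaled CPM of each gene in the 3 wild type libraries, divided by the mean of libraries 2 and 3 (log scale), with grey diamonds for the median of wild type library 1 over 3 groups of genes. Library 1 lies at 0.0607 for Dnase2b, 0.0744 for Lctl and 0.096 for Birc7, but at 0.994 for Drd4, while the median is 0.474 for crystallins and 1.00 for all features tested.

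Without wild type library 1 the median spread over the 7 genes was 1.31, and the log2 changes were −8.26 for Lctl, −7.14 for Dnase2b, −6.72 for Birc7, −5.22 for Gm20757, −5.21 for Hopx, −4.90 for Drd4 and −3.35 for Grifin. Other libraries moved the values the other way. Without knockout library 1 the log2 change was −5.33 for Dnase2b, −6.49 for Lctl, −4.26 for Drd4 and −4.12 for Gm20757. Without wild type library 3 it was −5.83 for Dnase2b, −7.02 for Lctl, −5.45 for Birc7, −4.32 for Hopx and −2.97 for Grifin. The most negative values were −7.34 for Dnase2b, without knockout library 2, and −8.30 for Lctl, without knockout library 3.

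Most marker sums of other tissues were highest in wild type library 1, on the scale of deposited CPM. Summed over each list, wild type libraries 1, 2 and 3 held 1003, 605 and 628 CPM of 10 neural retina markers and 2588, 1225 and 652 CPM of 9 erythroid markers. The 6 endothelial markers summed to 426, 270 and 195 CPM and the 8 macrophage markers to 76.8, 44.4 and 29.2 CPM in the same order. Library 1 was the highest of the wild type libraries in each of these sums. It was also highest for neuronal, pigment, surface ectoderm and mesenchyme markers, the last narrowly, at 330, 128 and 326 CPM. Skeletal muscle markers went the other way, at 0.807, 2.51 and 9.47 CPM. TMM factors of 0.984, 0.843 and 0.835 would raise libraries 2 and 3 relative to library 1, and the sums were not scaled by them. With them, library 1 would not be highest for mesenchyme markers or for neuronal markers, unscaled at 171, 158 and 103 CPM. The part of these markers in the low values of library 1 was not tested.

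Some marker lists also differed between knockout and wild type. Over all features tested 15.9% were called higher and 16.8% lower. Neural retina markers summed to between 1740 and 2740 CPM in the knockout, and 5 of 10 rose, with Sfrp2 the most, at a log2 change of 1.68 (edgeR adjusted p = 0.000732). Sfrp2 alone made up most of these knockout sums, at 1626, 1593 and 1063 CPM in libraries 1, 2 and 3. The other called retina markers changed by 0.72 to 0.77. Crx had the only negative change of the list, at −0.35, and did not pass the test. Of the pigment cell markers 5 of 6 rose, all 4 surface ectoderm markers rose, as did 3 of 6 tested periocular mesenchyme markers and 3 of 9 erythroid markers. The erythroid sums overlapped, at 1689 to 2477 CPM in the knockout and 652 to 2588 CPM in the wild type. Hba-a2 at −0.30 and Hbb-bh1 at −0.74 were lower without passing the test. Pigment markers summed to between 289 and 795 CPM in the knockout and between 68.3 and 187 CPM in the wild type. Surface ectoderm markers summed to between 19.7 and 103 CPM against 2.70 to 13.0 CPM, and mesenchyme markers to between 552 and 2745 CPM against 128 to 330 CPM, with Foxc2 listed at 0 throughout. Of the neuronal markers 1 of 9 fell, and none of the 6 endothelial, 8 macrophage or 2 tested muscle markers passed the test in edgeR, although 3 endothelial and 1 macrophage marker were higher at an unadjusted p under 0.05. DESeq2 called 2 endothelial markers and 1 macrophage marker higher, and limma-voom called none. Without wild type library 1, edgeR called 5 endothelial, 4 macrophage and 7 neural retina markers higher, and the neuronal marker lost its call. The part of these cells in the decrease of the 7 genes was not tested.

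Within the knockout, library 1 was the lowest on deposited CPM in 6 of the 7 genes, the exception being Grifin, and it was also the deepest library. After TMM scaling Grifin was lowest there too, at 19.6 CPM against 20.9 and 25.7 CPM in libraries 2 and 3. The share of all features lowest in this library was not counted. Lctl and Dnase2b had no count there among 28391662. In each knockout library 2 of the 7 genes were at 3 counts or fewer.

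Correlations of log2 CPM after TMM scaling over the 6 libraries are given as descriptions. The libraries fall into 2 groups, so a value near 1 mostly says that a gene was lower in the knockout. Among pairs of the 7 genes, Pearson's r was highest for Lctl with Birc7, at 0.998, and lowest for Drd4 with Dnase2b, at 0.88. With the mean of the 7 genes, 1049 of 14264 other features (7.35%) had an r over 0.95. The 10 highest were Bfsp1, Dpp8, Frmd3, Wnt7a, Fam120a, Slc46a3, Cacna2d4, Cpeb3, Gdap2 and Iqck.

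Bfsp1, which encodes the lens beaded filament protein filensin, had an r of 0.9997 and also shared the low wild type library 1. It was at 380, 1515 and 2089 CPM in the wild type and at 24.4, 51.9 and 57.5 CPM in the knockout. Wnt7a, a Wnt ligand, had an r of 0.9987, with 22.8, 64.1 and 75.6 CPM in the wild type and 2.89, 5.04 and 4.51 CPM in the knockout. The size of change varied among the 10, from a log2 change of −5.30 for Bfsp1 to −0.48 for Fam120a.

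For single members the most alike feature was Usp47 for Dnase2b (r = 0.998), Cabp5 for Birc7 (0.9993), Gm17281 for Lctl (0.9986), Lin7a for Grifin (0.9996), Adc for Hopx (0.9998), Arid3a for Drd4 (0.996) and Adam12 for Gm20757 (0.9992). Likeness of shape was no likeness of size, since Usp47, a ubiquitin-specific protease, had a log2 change of −0.15 after TMM scaling, although its deposited CPM, without TMM, was higher in the knockout, at 284 to 298 against 243 to 265. Cabp5, a calcium binding protein, fell by 3.37 on the log2 scale.

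The relatives of the 7 genes were compared next, with the 7 left out of every list. Medians and counts stand beside the values for all features tested, a median log2 change of 0.04 with 16.8% lower and 15.9% higher. Scaling by library totals alone moved that median to 0.39 and gave 945 lower and 5423 higher calls. Changes below are on the log2 scale with TMM. No gene reported below as risen or fallen changed sign under that scaling. With it, the higher and lower calls were 4 and 0 among nucleases, 6 and 1 in the IAP and caspase list, 4 and 0 among galectins, 4 and 0 among Hopx partners and 4 and 0 among dopamine genes.

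**Figure D3:**
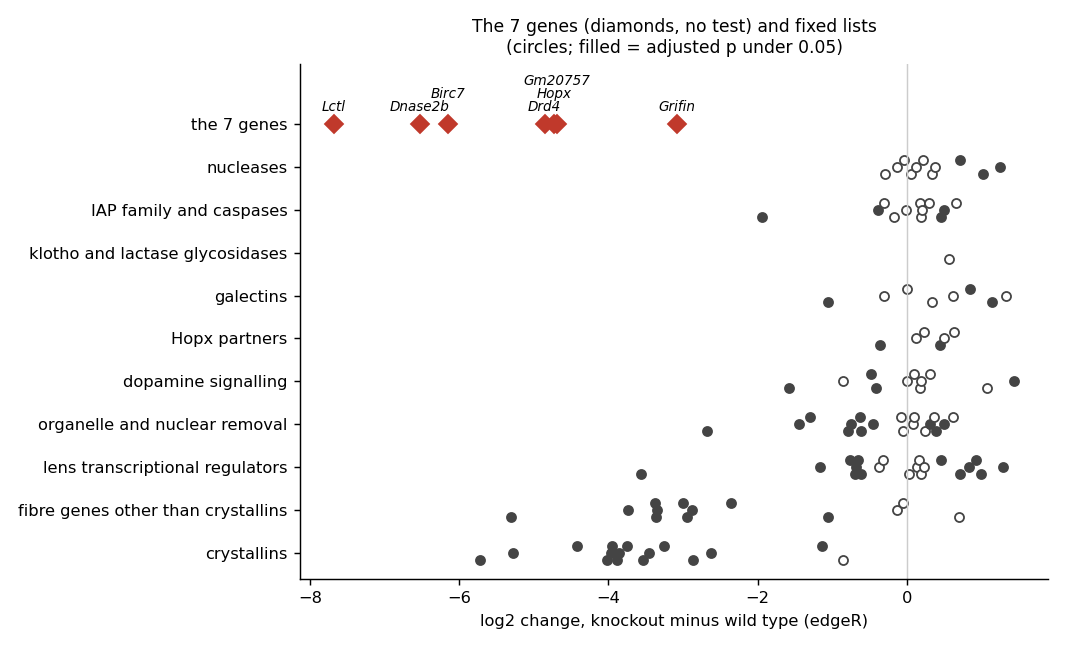
Log2 change, knockout minus wild type, of the 7 genes (red diamonds, no test) and of tested genes in 10 lists (circles, filled where the edgeR adjusted p was under 0.05). Relatives and partners of the 7 genes lie around 0, while most crystallins and other fibre genes lie left of −2.

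Of the 11 tested nuclease genes other than Dnase2b, 3 rose, and the median log2 change was 0.21. Dnase2a, the widely expressed acid nuclease of lysosomes, was at 2.04 ± 0.445 CPM in the wild type and 5.28 ± 0.627 CPM in the knockout (SD, n = 3 each), a log2 change of 1.02 (edgeR adjusted p = 0.0115). Endod1, an endonuclease domain gene, rose by 1.25 (edgeR adjusted p = 0.000749). Dnase1l1 was also called, at 0.70, but lost the call in 8 of 14 alternatives, with edgeR, DESeq2 and limma-voom adjusted p between 0.00777 and 0.133. Leaving out wild type library 3 ended the call of Dnase2a (edgeR adjusted p = 0.0552). The 2 acid nucleases of the family thus had opposite signs, 1.02 for Dnase2a and −6.53 for Dnase2b, and this difference was not tested.

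Of 12 tested genes of the IAP family and caspases, other than Birc7, 2 rose and 2 fell, with a median of 0.18. Birc5, which encodes survivin, rose by 0.46 (edgeR adjusted p = 0.0205), and leaving out wild type library 2 or wild type library 3 ended its call. Htra2, a mitochondrial protease that binds IAPs, was called at −0.38 and lost the call in 7 of 14 alternatives. The IAP genes Xiap at 0.19, Birc2 at −0.31, Birc3 at 0.66, Birc6 at −0.17 and Naip2 at 0.20 did not pass the test in edgeR. Birc2 passed in DESeq2 (adjusted p = 0.0479), and in edgeR with RLE size factors (adjusted p = 0.044) or when either knockout library 1 (adjusted p = 0.02) or wild type library 1 (adjusted p = 0.0366) was left out. Xiap and Birc3 passed with library totals alone, higher in the knockout.

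Of the galectins, 2 of 8 tested rose and 1 fell, with a median of 0.47. Lgalsl, a galectin-related gene like Grifin, rose by 1.14 (edgeR adjusted p = 0.000367), from 56.8 ± 3.02 to 160 ± 25.6 CPM. Lgals1 rose by 0.84 (edgeR adjusted p = 0.00854), from 33.5 ± 5.97 to 75.9 ± 18.6 CPM. Lgals3 was called at −1.07 and lost the call in 10 of 14 alternatives. Lgals4 at 0.33, Lgals7 at 1.32, Lgals8 at −0.01, Lgals9 at 0.61 and Lgals12 at −0.31 did not pass the test. Lct, the lactase gene related to Lctl, had a log2 change of 0.56 that did not pass, and the klotho genes Kl and Klb did not reach the count minimum.

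Hopx is known to act with serum response factor and histone deacetylases. Among 6 tested partner genes 1 rose and 1 fell, and both changes were small. Mkl2, a coactivator of serum response factor, was called at 0.44 and lost the call in 7 of 14 alternatives. Epc1, which binds Hopx, was called at −0.36 and lost the call without knockout library 2, without wild type library 3 and with library totals alone. Srf at 0.63 did not pass.

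Around Drd4, 11 tested dopamine genes gave 1 that rose and 3 that fell, with a median of 0.09. Ddc, the decarboxylase that makes dopamine, rose by 1.44 (edgeR adjusted p = 0.0139), from 1.12 ± 0.531 to 3.83 ± 0.0841 CPM. Gnai1, an inhibitory G protein subunit, was called at −0.49 and lost the call with library totals alone. The dopamine transporter gene Slc6a3 was called at −1.58 and lost the call in 7 of 12 alternatives. Without knockout library 3, or without wild type library 1, 2 dopamine genes were called higher, limma-voom called 3 higher, and without wild type library 2 or 3 only 1 was called lower. Of the other receptors, Drd1a at 0.19 did not pass, Drd3 was listed at 0 throughout, and Drd2 and Drd5 did not reach the count minimum.

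The genes that define fibre cells fell with the 7, and wild type library 1 was low in them too. Of the crystallins 15 of 16 fell, with a median of −3.81, and of 13 other tested fibre genes 10 fell, with a median of −2.95. Both counts were the same without wild type library 1. Within the crystallins the largest decreases were in the γ-crystallin genes Crygf at −5.73, Crygb at −5.27 and Crygd at −4.43, and within the other fibre genes in Bfsp1 at −5.30, the water channel gene Mip at −3.73 and Bfsp2, the other beaded filament gene, at −3.38. In the main fit Lctl, Dnase2b and Birc7 had larger decreases than any of these. Their standard errors of 1.06 to 1.38 were larger as well, and the differences were not tested. The value of Birc7 depended on the setting, at −5.49 with a prior count of 2 and −5.26 with limma-voom. Both are smaller decreases than that of Crygf in the main fit.

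Genes of organelle and nuclear removal were mixed, with 8 of 18 lower, 3 higher and a median of −0.07. Pla2g16, a phospholipase known to act in lens organelle breakdown, fell by 2.68 on the log2 scale (edgeR adjusted p = 0.000679), from 394 ± 148 to 80.3 ± 3.67 CPM. The lysosomal regulator Tfeb fell by 1.45 (edgeR adjusted p = 0.00713) and the lysosomal channel gene Mcoln1 fell by 1.298 (edgeR adjusted p = 0.000327). The 3 higher calls were lost without wild type library 2 or 3, and 1 higher call was made without knockout library 2. With library totals alone 8 were higher and 4 lower. In library 1 of the wild type Pla2g16 was at 224 CPM, below the 459 and 498 CPM of libraries 2 and 3.

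Among 20 tested lens transcription regulators, 7 fell and 6 rose. These counts were 4 and 3 without wild type library 2, 4 fell without wild type library 3, and with library totals alone 2 fell and 11 rose. Hsf4, the heat shock factor known to control Dnase2b in the lens, was at 74.3, 125 and 135 CPM in the wild type and at 9.97, 12.1 and 15.4 CPM in the knockout. Its groups did not overlap, and its log2 change was −3.57 (edgeR adjusted p = 0.000195). Mafg, a small Maf factor, fell by 1.16 (edgeR adjusted p = 0.000508). Tfap2b, an AP-2 factor, was called at 1.29, and was at 50.8, 15.2 and 17.4 CPM in wild type libraries 1, 2 and 3. The call was lost in 4 of 14 alternatives, each of them leaving out 1 library (knockout 1, knockout 3, wild type 2 or wild type 3). Of the 7 genes, Dnase2b held 1 GAANNTTC and Drd4 held 1 TTCNNGAA in the promoter window, as shown above, and the other members held neither. Over all windows, GAANNTTC was found in 7.86% and TTCNNGAA in 8.52%. A link of these matches to the level of Hsf4 was not tested.

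Genes beside the 7 on their chromosomes were called about as often as all features tested (32.6%). Within 100000 bases, 30 neighbours were tested, of which 4 were higher and 6 lower, with a median log2 change of 0.04, the same as over all features tested.

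**Figure D4:**
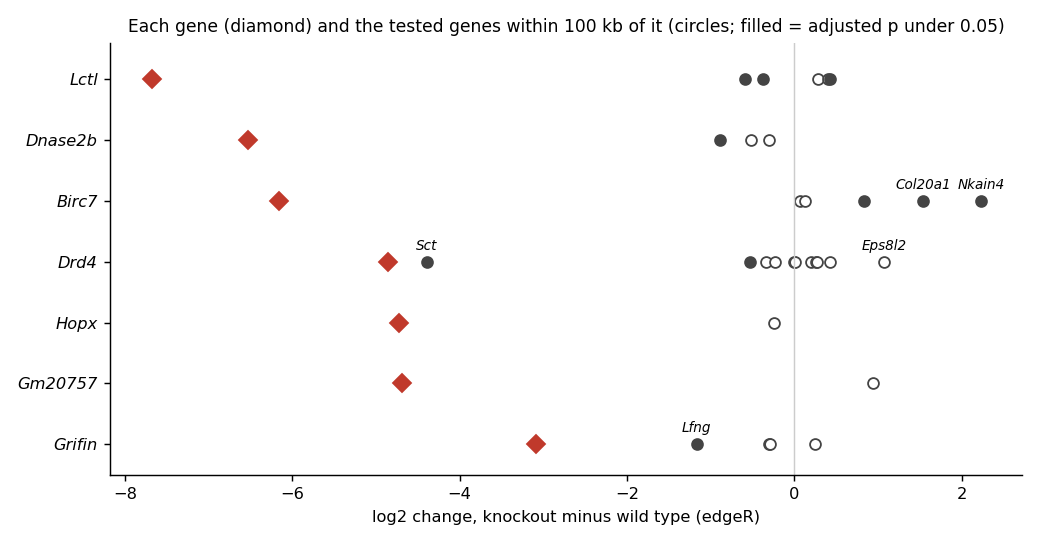
Log2 change of each of the 7 genes (red diamonds) and of the tested genes within 100000 bases of it (circles, filled where the edgeR adjusted p was under 0.05). Sct, at −4.39 beside Drd4, lies apart from the other neighbours, which range from Lfng at −1.17 to Nkain4 at 2.23.

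Sct, which encodes the hormone secretin, lies 12873 bases from Drd4 on the other strand, at 141278330 to 141279133 of chromosome 7. It had 38, 39 and 35 counts in wild type libraries 1, 2 and 3 and 3, 0 and 2 counts in knockout libraries 1, 2 and 3. That is 1.79 ± 0.101 CPM against 0.109 ± 0.11 CPM (SD, n = 3 each), a log2 change of −4.39 (edgeR adjusted p = 0.000674), and all knockout counts were at or below 3. Like Drd4, Sct was not low in wild type library 1. Deaf1, 716 bases from Drd4 and named after its values were seen, was at 0.27 and did not pass the test.

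Nkain4, which encodes a protein that interacts with the sodium pump, lies 762 bases from Birc7 on the opposite strand and rose by 2.23 (edgeR adjusted p = 0.000203). It had 54, 48 and 37 counts in the wild type libraries and 389, 166 and 99 counts in knockout libraries 1, 2 and 3, where Birc7 had 9 counts in all. Col20a1, a collagen gene, rose by 1.54 and Chrna4, a nicotinic receptor subunit gene, by 0.84. Lfng, a Notch-modifying enzyme gene 42249 bases from Grifin, fell by 1.17, and Gng5, a G protein subunit gene 75413 bases from Dnase2b, fell by 0.89. Near Lctl, Map2k1 at −0.58 lost its call with library totals alone, Smad6 at 0.42 lost it in 8 of 14 alternatives and Rpl4 at −0.37 in 7 of 14. Near Drd4, Hras at −0.53 lost its call without wild type library 2 and with library totals alone.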

How the data were processed

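Poly(A) RNA from 6 pools of 30 lenses was sequenced as single-end reads of 51 bp without strand, per the labels' protocols. For each feature the deposited tables give its raw count, its CPM and its RPKM, per the file headers. The deposited CPM is the count over the library total, within 1e-06. Per the submitters' processing notes, build GRCm38 and edgeR were used. No source used here names the aligner, the counting program or the annotation. Count and CPM disagreed in 26 features, which were left out (between 0.0424% and 0.0636% of counts), which left 41102 features, of which 19852 had no count.

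Counts were fitted in R 4.3.3 with the edgeR 4.0.16 quasi-likelihood test (filterByExpr with a minimum count of 10, TMM, Benjamini-Hochberg adjustment over all 14271 tested features, threshold 0.05). Levels are deposited CPM, mean ± SD. The fit was checked on simulated data. Intervals are exact Poisson limits at 95% and cover counting error only. Correlations and fitted changes used TMM scaling, correlations on log2 CPM with a prior count of 2. Pooled ratios used library totals alone. Coordinates are from GENCODE M21. The genes named are the 7 members, the 3 largest changes of each list and all tested relatives, called neighbours, the 10 most alike features and 1 per member, and Prox1. Some genes that this rule selects are not reported here. Markers of other cells are named only to describe their lists. Alternatives were DESeq2 1.42.0, limma-voom (limma 3.58.1), other scalings and filters, a replicate block and leaving out each library. The members and lists were chosen with earlier results of these data known.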

Additional observations from a re-analysis of the deposited data

How the results depend on the processing

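The log2 changes of the 7 genes stayed negative in every alternative that tested them (Lctl did not pass the filter at 1 CPM). Apart from leaving out libraries, Lctl ran from −7.70 to −5.94, Dnase2b from −6.55 to −5.87, Birc7 from −6.18 to −5.26 and Grifin from −3.10 to −2.70. Leaving out 1 library at a time gave a median over the 7 genes between −5.49 and −4.41. The median wild type spread of the 7 genes ran from 1.31, without wild type library 1, to 6.75 in the same exercise. With library totals alone, 945 features were lower and 16 neighbours were called. Leaving out 1 library gave 1431 to 2917 features lower, with 1431 without wild type library 2 and 1523 without wild type library 3, and 7 to 13 neighbours called. Same-numbered knockout and wild type libraries correlated in their deviations from the group means at −0.0276, 0.254 and 0.111. Knockout libraries 2 and 3 correlated best with their own number, library 3 narrowly (0.0878 with wild type library 1). Knockout library 1 did not, and the numbers were not taken as pairs. The fit with a replicate block called 4176 features, 2156 of them lower, with 68 genes of the fixed lists against 71 and 10 neighbours as before. Of the calls named above, it ended those of Dnase1l1, Htra2, Lgals3, Mkl2, Slc6a3 and Smad6. Signs that turned all belonged to genes that did not pass the test: with library totals alone Birc2 (0.0467), Birc6 (0.164), Lgals8 (0.349) and Lgals12 (0.0961), and for Lgals8 also with a filter at 1 CPM (0.00235), limma-voom (0.0132) and upper quartile factors (0.0436). With 1 library left out, Lgals8 ran from −0.0761 to 0.0709, Lgals12 from −0.778 to 0.107, Naip2 from −0.0188 to 0.477 and Drd1a from −0.0577 to 0.587. The cause of these shifts was not tested. Depth limits Lctl, Dnase2b and Birc7 most, since their knockout counts were between 0 and 5 per library.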

Other observations

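Of 10 lens epithelium genes, 4 rose and 2 fell in the knockout, with a median log2 change of 0.33. Over all features tested 15.9% were called higher and 16.8% lower, with a median of 0.04. With library totals alone, 7 of the epithelium genes were called higher and 1 lower. The gap junction gene Gja1 rose by 1.28 on the log2 scale (edgeR adjusted p = 0.000984) and the growth factor receptor gene Pdgfra by 0.80 (edgeR adjusted p = 0.00661). Sfrp1, a secreted Wnt inhibitor, fell by 1.16 (edgeR adjusted p = 0.000799). In wild type library 1 the median of these genes was 0.853 of the mean of libraries 2 and 3, against 0.168 for the 7 genes described above.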
